A study of Mus musculus with 6 samples.

Results

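The Zfp-named C2H2 zinc finger factors of mouse islets were followed by the ribosome footprints on their mRNAs in low and high glucose. Members were chosen by family and by depth. They are protein-coding genes that the deposited table places in the zf-C2H2 family, with a name of Zfp and a number, and at least 600 footprints summed over the 6 libraries, and *Zfp598* was left out by this rule. Of 355 such genes before the count minimum, 123 were members, out of 56747 genes in the table. The count minimum was the one measured value that selected them, so their level of expression is given below as a description only. Just inside it were *Zfp426* with 600 footprints and *Zfp217* with 605, and just outside were *Zfp235* with 594 and *Zfp664* with 593. Every member also passed the filter on low counts of the test.

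Islets came from C57BL/6J male mice aged 6 to 8 weeks, for which the labels name no other allele. They were kept for 2 h at 2.5 mM glucose (low glucose, 3 libraries) or at 25 mM glucose (high glucose, 3 libraries), after a preincubation without glucose. Islets of each animal were divided between the conditions and those of several animals were pooled for a replicate, so a library is a pool and the spread between libraries is not the spread between animals. Cycloheximide, which stops ribosomes on the mRNA, was present for the last 15 min in both conditions. In this assay (Ribo-seq) the pieces of mRNA shielded by ribosomes from RNase I are sequenced, so a gene's count depends on how much mRNA it has and on how many ribosomes each mRNA carries. RNA-seq is not analysed here. In whole islets, a lower value from fewer cells of a type and from less RNA per cell cannot be told apart.

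C2H2 zinc finger proteins bind DNA through arrays of small zinc-holding loops, each of which contacts a few bases. Many carry an N-terminal KRAB box that recruits TRIM28 (also called KAP1), which in turn brings the histone methyltransferase SETDB1 and HP1 proteins to silence retroelements, imprinted loci and genes. Others have no KRAB box and act at promoters, in co-repressor complexes or, in a few cases, on RNA or ribosomes. Most are made at low levels, and many lie in clusters of related genes, so short reads may not tell near-identical copies apart.

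Library totals were 9242549 to 12175699 footprints in low glucose and 16322162 to 20692579 in high glucose. Defining markers of beta, alpha, delta and PP cells were present in every library. Acinar markers, such as digestive enzymes, were detected too. All 10 tested of 12 acinar markers were called lower in high glucose, their summed level (CPM, each library's footprints scaled to one common size by TMM) ran from 682 to 767 at low and from 298 to 321 at high glucose, and the other 2 had no count. Of the alpha cell markers 4 of 5 were called lower (summed level 58473 to 62245 in low and 46862 to 50454 in high glucose). Of the beta cell markers 6 of 8 were called higher and 2 lower (131521 to 147572 and 160937 to 176006). *Ins2* alone went from a mean of 91577 to 117224 CPM, so much of the rise in the beta sum was that of this gene. Of the 3 delta and PP markers *Sst* was called lower and 2 were not called (10620 to 10961 and 9238 to 9693). Of the endothelial, stellate and immune cell markers 2 of 6, 3 of 6 and 2 of 7 were called lower and none of these 3 lists had a higher call, while 1 of 4 tested duct markers was higher. The part of cell makeup in the values of the zinc finger genes was not tested.

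More of these factors lost footprints in high glucose than gained them. By edgeR's quasi-likelihood test, adjusted over 13100 genes, 17 of 123 were lower (13.8%) and 7 were higher (5.69%) at an adjusted p under 0.05. Over all genes tested 10.2% were called lower and 12.1% higher. By this call the share that fell was near the background and the share that rose was below it. The median log2FC (high over low glucose) was -0.12 for the members and -0.01 for all genes tested, and 82 of 123 members (66.7%) lay below 0 against 51.0% of all genes. Among the 7360 tested genes whose totals fell within the members' range, 47.7% lay below 0 and the median was 0.02. By the study's kind of rule, a fold above 1.5 with an unadjusted p under 0.05, 18 members were lower (14.6%) and 5 higher (4.07%). Over all genes the shares were 8.58% and 6.6%, so by that rule the share that fell was above the background. The 3 high-glucose libraries all lay below the 3 low-glucose libraries for 28 members (22.8%) and all above for 13 (10.6%). Over all genes these shares were 18% and 19.5%. When libraries were scaled by their totals alone 19 members were lower and 4 higher, and over all genes the shares then were 12.1% lower and 10% higher. Leaving out 1 library moved these counts by over 1.5 times: 3 members were higher without high-glucose replicate 1 or 2 or low-glucose replicate 1, 4 without high-glucose or low-glucose replicate 3, and 11 were lower without high-glucose replicate 3.

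**Figure D1:**
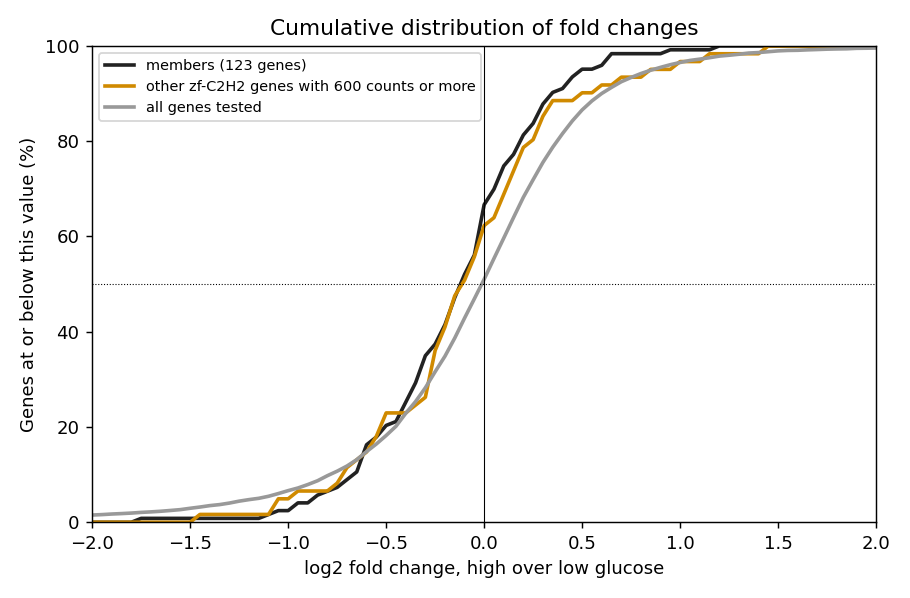
Cumulative distribution of log2 fold changes, high over low glucose (x axis), as the percent of genes at or below each value (y axis), for the 123 members, the 61 other zf-C2H2 genes with at least 600 footprints and all 13100 genes tested. The members' curve crosses 50% at -0.12 and that of all genes at -0.01.

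Added together, the members held 0.275%, 0.274% and 0.276% of the footprints in low glucose (replicates 3, 2 and 1) and 0.248%, 0.235% and 0.234% in high glucose (replicates 1, 2 and 3). The conditions did not overlap. On the scaled level, in CPM, the sum was 2709 ± 6.92 (SD, n = 3) in low and 2434 ± 70.1 in high glucose. The 17 members called lower went from 755 ± 30.1 to 482 ± 18.7 CPM and the 7 called higher from 231 ± 20.7 to 311 ± 16.0 CPM. These follow from the calls. The 99 members not called summed to 1723 ± 24.2 CPM at low and 1641 ± 40.9 CPM at high glucose.

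Calls by the adjusted p were more frequent among members with more footprints. Among the 41 members with the fewest footprints (600 to 935 in total) the median standard error of log2FC was 0.28 and 5 were called, the smallest at 0.88 from 0. Among the next 41 (943 to 1623) it was 0.22 and 7 were called. Among the deepest 41 (1623 to 9831) it was 0.15 and 12 were called, down to 0.27 from 0. By the fold rule the order was otherwise. It called 3 higher and 6 lower among the shallowest 41, 1 and 7 among the next and 1 and 5 among the deepest. Over all genes that rule called 6.6% higher and 8.58% lower. Of the 99 members not called, 42 had an interval (log2FC ± 1.96 SE) that stayed within 1.5-fold of no change. For 57 it reached past 1.5-fold. The factor 1.96 is that of a normal distribution, so the intervals run slightly narrow and 42 may be somewhat too many. That of *Zfp948* left out 0 (-1.19 to -0.02) though its unadjusted p in edgeR was 0.0536. Between libraries of a condition the coefficient of variation of a member was 15.7% in low and 13.0% in high glucose at the median.

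**Figure D2:**
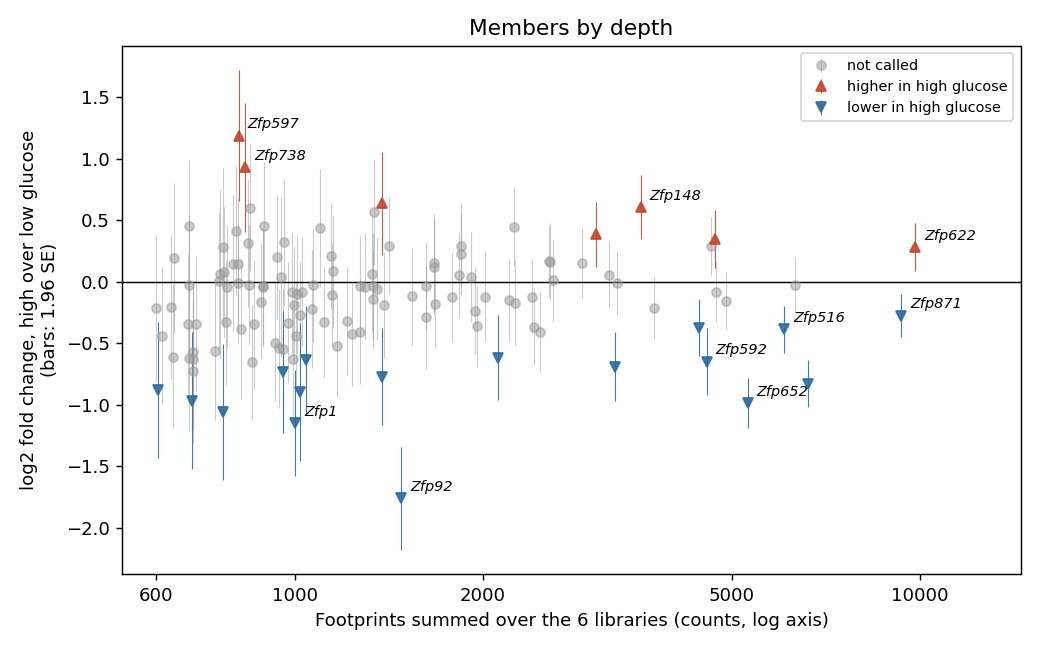
Log2 fold change, high over low glucose (y axis, bars 1.96 SE), against the footprints summed over the 6 libraries (x axis, log scale) for each of the 123 members. Triangles mark the 7 members called higher and the 17 called lower. *Zfp92* lies lowest at -1.76, and calls within 0.5 of 0 lie only at 3035 footprints or more.

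Per kb of the gene length in the deposited table, whose derivation is not given in the sources used here, the most heavily read members were *Zfp622* (15.6 CPM per kb, mean of the 6 libraries), *Zfp938* (13.5), *Zfp110* (12.9), *Zfp719* (11.3) and *Zfp574* (11.3). The median member had 2.75 CPM per kb and the median of all genes tested was 3.45. *Zfp738* was lowest at 0.593. The levels spanned a wide range, and across the 123 members they had little relation to the fold change (Spearman's rho -0.11 across genes, which are not independent and share the same libraries). *Zfp938*, which was not called, had 26.8, 36.8 and 33.2 CPM at low and 24.4, 28.1 and 23.0 CPM at high glucose (log2FC -0.36 ± 0.16 SE, adjusted p = 0.112 in edgeR), and its conditions overlapped. *Zfp574* had 53.5, 66.5 and 49.2 CPM at low and 54.2, 48.7 and 57.1 CPM at high glucose.

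**Figure D3:**
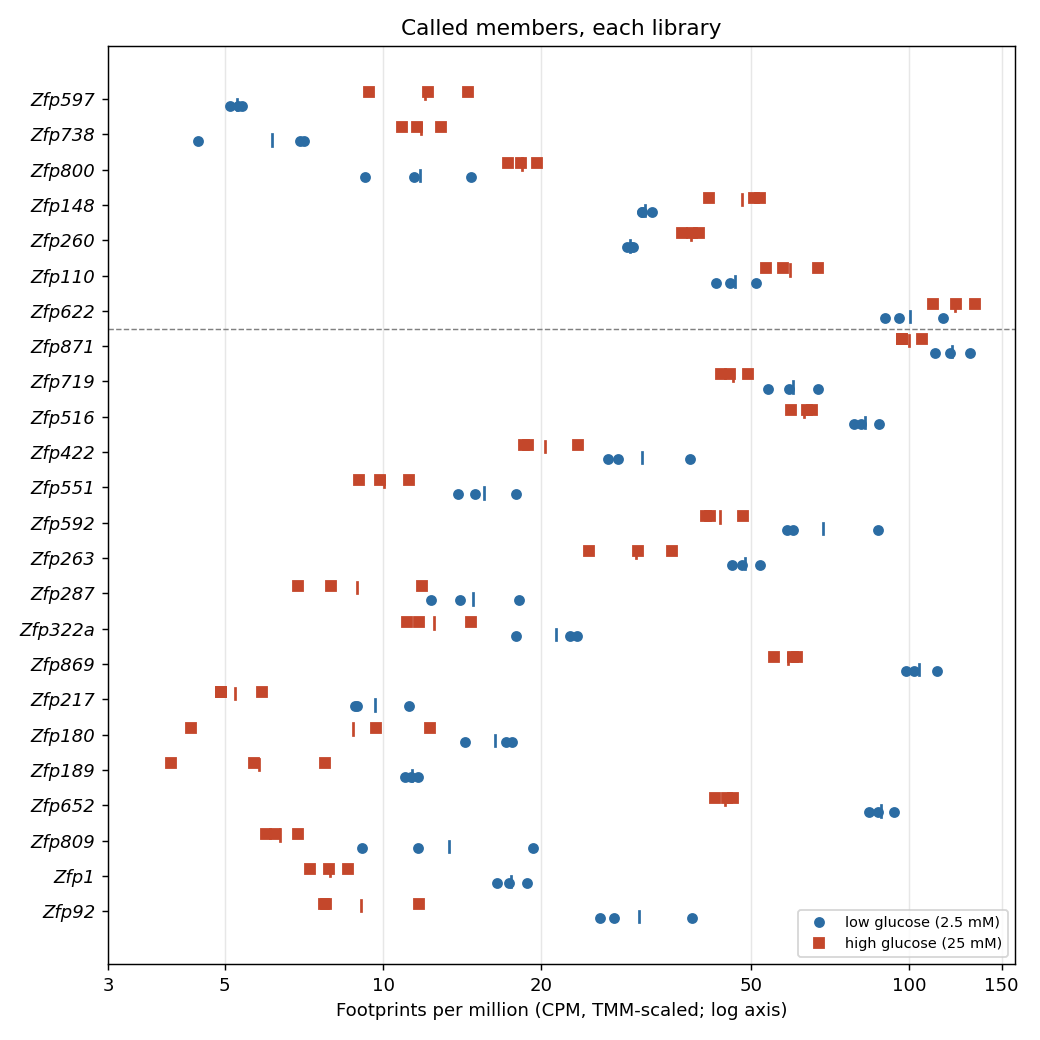
CPM (x axis, log scale) in each library for the 24 called members, with 3 low-glucose libraries as circles, 3 high-glucose libraries as squares and a short line at each mean. The dashed line separates the 7 higher from the 17 lower members, and the conditions overlap for *Zfp622* alone.

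The promoters of the members with the smallest adjusted p are printed first, 3 that fell (*Zfp92*, *Zfp652*, *Zfp869*) and 2 that rose (*Zfp148*, *Zfp597*). Each run is the 250 bases before an annotated start, 5′ to 3′ on the gene's strand, from RefSeq (GRCm38.p6). Capitals mark a CCAAT box (CCAAT), a loose AP-1 pattern (TGANTCA, N any base), a CRE (TGACGTCA) or an E-box (CACGTG). Both strands were searched. *Zfp92* and *Zfp148* have a pair of annotated starts.
*Zfp92*, chrX:73410846-73411095, strand plus: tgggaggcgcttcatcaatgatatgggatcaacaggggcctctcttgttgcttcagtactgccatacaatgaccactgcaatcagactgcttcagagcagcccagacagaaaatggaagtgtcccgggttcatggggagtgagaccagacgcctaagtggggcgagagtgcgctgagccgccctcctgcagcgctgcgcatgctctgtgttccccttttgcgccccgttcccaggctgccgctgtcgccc
*Zfp92*, chrX:73411310-73411559, strand plus: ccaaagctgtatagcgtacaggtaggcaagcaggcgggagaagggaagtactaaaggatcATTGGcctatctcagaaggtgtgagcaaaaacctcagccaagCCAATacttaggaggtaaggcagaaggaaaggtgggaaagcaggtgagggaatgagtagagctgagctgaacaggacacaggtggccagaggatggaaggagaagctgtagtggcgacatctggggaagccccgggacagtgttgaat
*Zfp652*, chr11:95748817-95749066, strand plus: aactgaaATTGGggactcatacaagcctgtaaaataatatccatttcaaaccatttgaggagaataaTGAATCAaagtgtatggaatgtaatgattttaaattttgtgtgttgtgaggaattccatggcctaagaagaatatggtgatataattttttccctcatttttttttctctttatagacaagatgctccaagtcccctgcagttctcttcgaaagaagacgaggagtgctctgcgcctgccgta
*Zfp869*, chr8:69716903-69717152, strand minus: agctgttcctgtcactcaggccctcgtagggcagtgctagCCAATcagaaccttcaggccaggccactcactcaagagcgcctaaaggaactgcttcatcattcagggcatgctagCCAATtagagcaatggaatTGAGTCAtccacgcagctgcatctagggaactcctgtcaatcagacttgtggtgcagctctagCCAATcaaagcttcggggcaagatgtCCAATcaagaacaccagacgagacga
*Zfp148*, chr16:33380525-33380774, strand plus: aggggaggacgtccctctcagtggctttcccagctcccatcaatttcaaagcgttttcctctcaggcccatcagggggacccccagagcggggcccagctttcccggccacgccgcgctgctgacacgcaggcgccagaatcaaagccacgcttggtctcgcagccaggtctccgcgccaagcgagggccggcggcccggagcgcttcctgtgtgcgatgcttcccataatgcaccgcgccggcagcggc
*Zfp148*, chr16:33381052-33381301, strand plus: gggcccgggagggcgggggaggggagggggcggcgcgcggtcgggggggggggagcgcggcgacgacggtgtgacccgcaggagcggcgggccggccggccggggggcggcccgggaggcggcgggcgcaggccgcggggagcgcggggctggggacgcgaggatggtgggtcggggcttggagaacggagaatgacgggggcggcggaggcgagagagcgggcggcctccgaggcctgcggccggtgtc
*Zfp597*, chr16:3872375-3872624, strand minus: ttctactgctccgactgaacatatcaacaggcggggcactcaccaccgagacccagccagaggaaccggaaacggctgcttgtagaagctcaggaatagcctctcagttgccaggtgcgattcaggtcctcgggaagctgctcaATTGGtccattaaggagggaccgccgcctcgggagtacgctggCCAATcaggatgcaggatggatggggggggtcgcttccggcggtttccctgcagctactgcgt

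Of the 123 members, 103 had a promoter in this table, 126 promoters in all. Their median number of CpG in 250 bases was 13, above the 6 of all 32851 promoters but below the 15 of tested protein-coding genes. Their median GC content was 56.4%, against 52.4% and 60%. A CCAAT box stood in 13 of 20 promoters of members that fell, in 3 of 9 of those that rose and in 37 of 97 of those not called, against 33.8% of all promoters and 34.7% of those of tested protein-coding genes. Counted by gene, 11 of 16 members that fell, 3 of 7 that rose and 33 of 80 not called had one, and 40.2% of tested protein-coding genes did. Genes with several promoters have more sequence to hold a box, and among genes with 1 promoter it was 7 of 12 that fell, 3 of 5 that rose and 24 of 65 not called (tested protein-coding genes, 36.5%). That of *Zfp869* held 4 and that of *Zfp597* held 2. The AP-1 pattern was found in 5 of the 126 promoters (3.97%, all promoters 6.75%, tested protein-coding genes 4.66%). Of these 3 were of members that fell (*Zfp652*, *Zfp869*, *Zfp871*) and 2 of members not called. The match in *Zfp652* (TGAATCA) has an A where the usual AP-1 site has C or G. A CRE was found in 3 of the 126 promoters (2.38%, all promoters 1.55%, tested protein-coding genes 2.65%) and an E-box in 6 (4.76%, against 6.02% and 8.23%). In *Zfp871* the E-box and the AP-1 match overlap. These matches describe the letters in the window and were not tested against the fold changes. The motifs were picked after the fold changes were known.

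*Zfp92* (ENSMUSG00000031374, chromosome X) fell furthest. It is a KRAB factor enriched in islets that, in the mouse, binds B1 SINE retroelements and recruits TRIM28. It had 38.7, 25.9 and 27.5 CPM at low glucose and 11.7, 7.80 and 7.70 CPM at high glucose. Every high-glucose library was below every low-glucose library, and log2FC was -1.76 ± 0.21 (SE, n = 3 against 3, adjusted p = 2.4e-06 in edgeR). Its neighbour *Zfp275* was not called (log2FC 0.16).

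*Zfp652* (ENSMUSG00000075595, chromosome 11), whose human counterpart ZNF652 is a repressor that works with the co-repressor CBFA2T3, had the smallest adjusted p of the members. It had 87.4, 93.5 and 83.9 CPM at low glucose and 46.2, 45.1 and 42.7 CPM at high glucose. Each condition was tight and they were far apart (log2FC -0.98 ± 0.10 SE, adjusted p = 2.6e-07). *Zfp869* (ENSMUSG00000054648, chromosome 8) had 102, 113 and 98.6 CPM at low and 60.1, 55.3 and 61.2 CPM at high glucose, again without overlap (log2FC -0.83 ± 0.10 SE, adjusted p = 1.4e-06). *Zfp1* (ENSMUSG00000055835, chromosome 8) had 18.8, 16.5 and 17.4 CPM at low and 8.58, 7.26 and 7.90 CPM at high glucose (log2FC -1.15 ± 0.22 SE, adjusted p = 4.8e-04). These 3 and *Zfp92* kept the call in each of the 15 alternative fits.

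*Zfp809* (chromosome 9), which in the mouse binds the primer binding site of murine leukaemia viruses and silences them through TRIM28, had 19.3, 11.7 and 9.10 CPM at low and 6.90, 6.00 and 6.22 CPM at high glucose. Low-glucose replicate 1 was the highest by far, and without it the call was lost (log2FC -0.71, adjusted p = 0.0985, against -1.06 ± 0.28 SE and 0.0084 with all libraries). *Zfp189* (chromosome 4) carries a KRAB box and had 11.0, 11.7 and 11.3 CPM at low and 7.77, 3.96 and 5.68 CPM at high glucose (log2FC -0.97, adjusted p = 0.0169). *Zfp180* (chromosome 7) had 17.6, 17.2 and 14.3 CPM at low and 9.69, 4.32 and 12.3 CPM at high glucose (log2FC -0.89, adjusted p = 0.0274). High-glucose replicate 2 was the lowest for both, and without it the adjusted p was 0.0895 for *Zfp189* and 0.130 for *Zfp180*. Other single libraries also ended both calls, with an adjusted p of 0.0505 to 0.0536 for *Zfp189* and 0.0586 to 0.0881 for *Zfp180*.

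*Zfp217* (chromosome 2), whose human counterpart ZNF217 is an oncoprotein bound to CtBP and the LSD1 to CoREST complex, had 8.90, 8.83 and 11.2 CPM at low and 4.91, 4.92 and 5.88 CPM at high glucose (log2FC -0.88, adjusted p = 0.0274). It lies 5 footprints above the count minimum, and leaving out high-glucose replicate 1 or 2 or low-glucose replicate 3 ended its call (adjusted p 0.0760 to 0.116). *Zfp322a* (chromosome 13), a pluripotency factor of mouse embryonic stem cells, had 22.7, 17.9 and 23.4 CPM at low and 11.7, 11.1 and 14.7 CPM at high glucose (log2FC -0.77 ± 0.20 SE, adjusted p = 0.0074). *Zfp287* (chromosome 11), with a SCAN domain and a KRAB box, had 18.1, 14.0 and 12.3 CPM at low and 6.90, 11.9 and 7.95 CPM at high glucose. Its conditions nearly met (log2FC -0.73, adjusted p = 0.0420), and leaving out any of 4 libraries raised the adjusted p to 0.0748 to 0.169. These were the 10 smallest log2FC among called members.

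The other 7 lower members ran from a log2FC of -0.69 to -0.27. *Zfp263* on chromosome 16 fell from 46.0, 48.1 and 52.2 to 30.6, 24.6 and 35.5 CPM (adjusted p = 0.0011). *Zfp592* fell from 87.3, 60.3 and 58.6 to 48.3, 41.1 and 41.8 CPM (adjusted p = 0.0014). *Zfp516* fell from 87.7, 78.6 and 80.9 to 64.1, 65.3 and 59.6 CPM (adjusted p = 0.0062). These 3 kept their call in every alternative fit. *Zfp551* (log2FC -0.63), *Zfp422* (-0.62), *Zfp719* (-0.37) and *Zfp871* (-0.27) had an adjusted p of 0.0134 to 0.0434, and each lost the call without at least 3 of the libraries in turn, where the adjusted p reached 0.108 to 0.150. With the replicate number as a block *Zfp551* had an adjusted p of 0.0508.

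*Zfp597* (ENSMUSG00000039789, chromosome 16) rose furthest. It has a KRAB box and its human counterpart is imprinted. It had 5.30, 5.40 and 5.12 CPM at low glucose and 14.5, 9.41 and 12.2 CPM at high glucose, so the low-glucose libraries were nearly equal and all lay below the high-glucose libraries (log2FC 1.19 ± 0.27 SE, adjusted p = 0.0026). *Zfp148* (ENSMUSG00000022811, chromosome 16), also known as ZBP-89, which binds GC-rich promoters, had 32.4, 31.0 and 31.1 CPM at low and 52.0, 50.8 and 41.6 CPM at high glucose (log2FC 0.61 ± 0.13 SE, adjusted p = 0.0018). Both calls held in every alternative fit.

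*Zfp738* (chromosome 13), another KRAB factor, had 4.45, 6.95 and 7.07 CPM at low and 11.6, 12.9 and 10.9 CPM at high glucose (log2FC 0.93, adjusted p = 0.0148), and the adjusted p was 0.0634 without high-glucose replicate 2 and 0.0636 without low-glucose replicate 1. *Zfp800* (chromosome 6), which the mouse pancreas needs to develop, had 9.22, 14.7 and 11.5 CPM at low and 17.3, 18.3 and 19.7 CPM at high glucose (log2FC 0.64, adjusted p = 0.0339). Leaving out any library but low-glucose replicate 2 ended this call (adjusted p 0.0559 to 0.140). *Zfp260* (log2FC 0.39), in rat cardiomyocytes a partner of GATA4, *Zfp110* (0.35), also called NRIF and a binder of the p75 neurotrophin receptor, and *Zfp622* (0.28) rose by less. Their adjusted p was 0.0432 to 0.0452, and it passed 0.05 in 8 to 10 of the 15 alternative fits, in which it reached 0.131 for *Zfp260*, 0.238 for *Zfp110* and 0.214 for *Zfp622*. With the replicate number as a block it was 0.0566 for *Zfp260* and 0.0598 for *Zfp110*.

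The 5 short lists of Zfp genes with described roles were read member by member. Over all genes tested 10.2% were called lower and 12.1% higher. With so few genes in a list its share moves much with 1 call, and no list was tested as a set. Several of their genes are not in the zf-C2H2 family of the table and are not members. Factors that silence imprinted loci or retroelements had 4 members of 8 names. *Zfp92* and *Zfp809* fell, the only calls among the 5 tested names (40%). *Zfp445*, which keeps imprints together with ZFP57, had 31.3 ± 1.66 CPM at low and 34.9 ± 4.57 CPM at high glucose (SD, n = 3, log2FC 0.16, adjusted p = 0.501). *Zfp568*, which represses a placental transcript of *Igf2* in mouse embryos, had 14.4 ± 0.703 and 17.7 ± 3.36 CPM (log2FC 0.29, adjusted p = 0.337).

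Members that work in chromatin complexes were 8 of 12 names, and 2 fell while none of the 8 rose. Among the 12 names, all tested, 16.7% were lower and none higher, against 10.2% and 12.1% over all genes. *Zfp217* is described above, and *Zfp592*, which with ZFP687 and ZMYND8 forms a co-repressor module, went from 68.7 ± 16.1 to 43.8 ± 3.98 CPM. Its partner *Zfp687* had 24.8 ± 3.69 and 21.0 ± 3.21 CPM (log2FC -0.24, adjusted p = 0.381). *Zfp644*, a recruiter of the methyltransferases G9a and GLP, had 28.2 ± 6.52 and 24.9 ± 2.77 CPM (log2FC -0.17). *Zfp335* had a log2FC of -0.57 ± 0.29 (SE, adjusted p = 0.172), *Zfp827* of -0.41 ± 0.22, *Zfp410* of -0.14 ± 0.21 and *Zfp518b* of 0.28 ± 0.33.

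Of the factors of development and differentiation, 3 of 12 names were members. *Zfp800* rose and *Zfp516*, which in the mouse drives brown fat genes, fell, each 1 of the 11 tested names (9.09%). *Zfp292* had 73.9 ± 2.01 and 72.8 ± 13.6 CPM (log2FC -0.02 ± 0.12 SE). Of the factors that bind promoters of widely used genes, 4 of 7 names were members. *Zfp148* rose. *Zfp281* had 6.39 ± 0.264 CPM at low and 8.75 ± 0.427 CPM at high glucose without overlap (log2FC 0.45 ± 0.27 SE, adjusted p = 0.260), while *Zfp143* had a log2FC of 0.21 ± 0.22 and *Zfp219* of 0.14 ± 0.29. The one member of the list on RNA, ribosomes and protein turnover was *Zfp622*, the counterpart of yeast Rei1, which acts in the cytoplasm on new large ribosomal subunits. It had 89.9, 116 and 95.7 CPM at low and 123, 133 and 111 CPM at high glucose. One low-glucose library lay above the lowest high-glucose library, so it was the 1 called member whose conditions overlapped. Among the 11 tested names of its list, most of them not members, 4 were higher (36.4%) and 2 lower (18.2%).

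**Figure D4:**
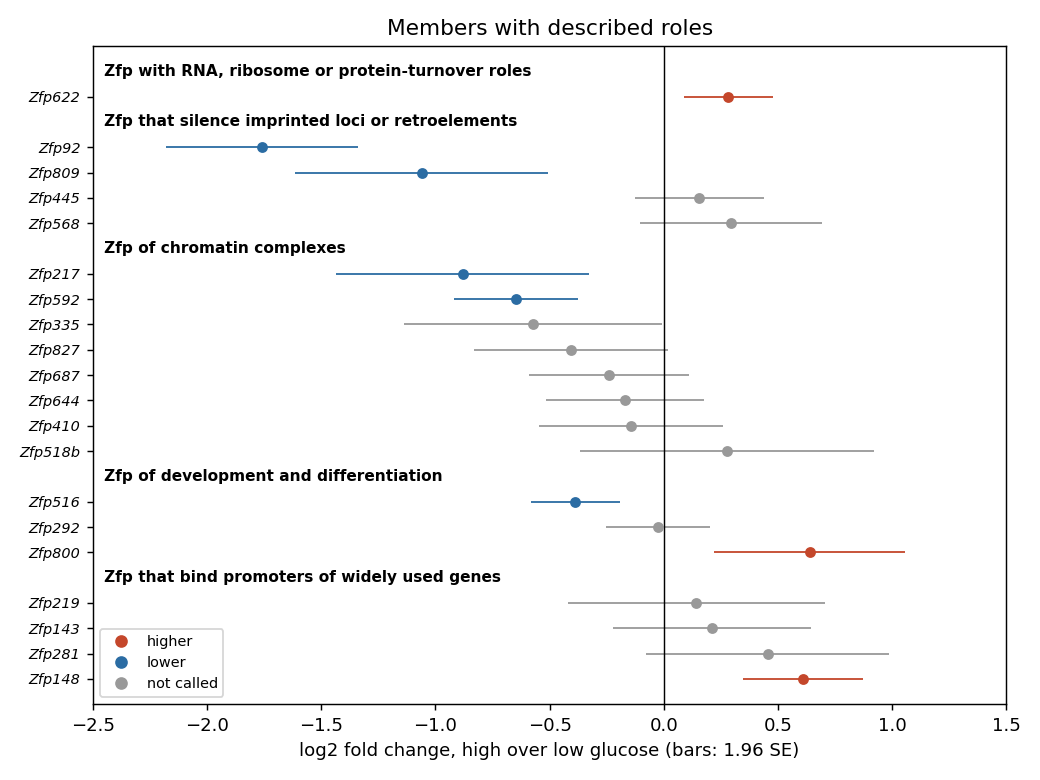
Log2 fold change, high over low glucose (x axis, bars 1.96 SE), for the members in 5 lists of described roles. Blue points were called lower, red points higher and grey points were not called. *Zfp92* and *Zfp809* lie to the left of their list while *Zfp445* and *Zfp568* lie at 0.16 and 0.29.

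The table's domain notes name a KRAB box for 42 members, another domain only for 21 and none for 60, so the KRAB members are a minimum. Of the 42, 5 fell (*Zfp92*, *Zfp189*, *Zfp287*, *Zfp551*, *Zfp871*) and 3 rose (*Zfp597*, *Zfp738*, *Zfp110*), with a median log2FC of -0.15. Those shares were 11.9% lower and 7.14% higher, against 10.2% and 12.1% over all genes tested. Of the 21 with another domain, 4 fell (19.0%) and 2 rose (9.52%), with a median of -0.10. Of the 60 with none 8 fell (13.3%) and 2 rose (3.33%), with a median of -0.12. Each of the groups had 66.7% of its members below 0. The difference between these groups was not tested.

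Chromosome 7 held 34 members (27.6%) but 7.50% of the tested protein-coding genes. Of these 34, 4 fell (11.8%, all genes 10.2%) and 2 rose (5.88%, all genes 12.1%). In the RefSeq order of protein-coding genes 60 members lay within 5 genes of another member, in 20 groups, and 63 lay alone. Of the 60, 6 fell (10%) and 4 rose (6.67%), with a median log2FC of -0.09. Of the 63, 11 fell (17.5%) and 3 rose (4.76%), with a median of -0.16. The largest group had 7 members on chromosome 7 (*Zfp84*, *Zfp790*, *Zfp27*, *Zfp383*, *Zfp568*, *Zfp260*, *Zfp382*), with log2FC from -0.41 to 0.39, and *Zfp260* alone was called. On chromosome 16 *Zfp263* and *Zfp597* are near neighbours, and the first fell (log2FC -0.69) while the second rose (1.19). On chromosome 17 all 4 of *Zfp871*, *Zfp799*, *Zfp952* and *Zfp563* lay below 0 (-0.29 to -0.08), and *Zfp871* alone was called.

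Of 23 tested genes of the TRIM28 machinery, the partners through which KRAB factors silence, 5 were called higher (21.7%, all genes 12.1%) and 3 lower (13.0%, all genes 10.2%). Above 0 lay 17 of the 23, with a median log2FC of 0.18, and 15 of the 23 were not called. The summed level of the list was 1908 to 1989 CPM at low and 2388 to 2456 CPM at high glucose. *Chd4* alone went from a mean of 672 to 1007 CPM, so much of the rise in the sum was that of this gene. Among all tested genes within the members' range of totals 14.1% were called higher and 11.8% lower. *Chd4* (log2FC 0.58 ± 0.05 SE, adjusted p = 2.2e-08), a nucleosome remodeller of the NuRD complex, the methyltransferase *Setdb1* (0.70 ± 0.13, adjusted p = 3.0e-04) and *Trim28* itself (0.32 ± 0.06, adjusted p = 6.7e-04) rose. *Trim28* went from 270 ± 10.6 to 337 ± 13.9 CPM. *Atf7ip*, the partner that stabilises SETDB1, fell (-0.73 ± 0.10, adjusted p = 1.2e-05), as did the HP1 genes *Cbx5* (-0.58 ± 0.13) and *Cbx3* (-0.62 ± 0.20). Of 23 genes listed as other co-repressor partners 5 were higher (21.7%, all genes 12.1%) and 4 lower (17.4%, all genes 10.2%). The higher were led by *Nipbl* (0.48), a cohesin loader rather than a co-repressor, *Ncor1* (0.56) and *Zmynd8* (0.39). The lower were led by *Rbbp7* (-0.41), *Tle3* (-0.60) and *Mta1* (-0.50).

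Zinc finger genes outside the selection gave the following. Of the 232 Zfp-named genes under the count minimum, 154 could be tested, 1 was higher (0.649%) and 2 lower (1.30%). Their median log2FC was -0.18 and their median standard error 0.49. Of the 61 zf-C2H2 genes with other names and at least 600 footprints 13 fell (21.3%) and 6 rose (9.84%), with a median of -0.11 and 62.3% below 0. Of 334 genes of other transcription factor families at that depth 48 fell (14.4%) and 54 rose (16.2%), with a median of 0.01 and 48.8% below 0. Over all genes tested 10.2% fell and 12.1% rose. No difference between these families was tested.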

How the data were processed

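Ribo-seq libraries of 3 low-glucose and 3 high-glucose replicates were analysed. As the study describes, the authors removed rRNA and tRNA reads, mapped with TopHat2 (version 2.0.12) and counted with HTSeq (version 0.9.1), and the deposited values are whole-number counts per gene, not scaled for depth. The submitters' processing notes name mm10 and DESeq2 (version 1.14.1). The gene length column was deposited by the authors, and other positions of the table were not used. Members and lists were chosen with earlier results of these data known.

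High glucose was tested against low glucose with edgeR (version 4.0.16, R version 4.3.3): filterByExpr, TMM scaling, quasi-likelihood F test, Benjamini-Hochberg adjustment over 13100 genes. Intervals are log2FC ± 1.96 SE, where the SE is the size of log2FC divided by the square root of the F statistic. A factor from the degrees of freedom of the F test would be larger than 1.96. The pipeline was tested on simulated data. Named genes were the 10 largest and 10 smallest log2FC among called members (7 were higher) and the 5 most read per length. Members of the role lists, the genes at the count minimum and the most significant genes of the co-repressor lists were named too. The other 7 lower members were added after their values were seen. The planned count of fingers and search for KRAB boxes in proteins were not run, and the table's domain notes stood in for the second. Islets of each mouse went to both conditions, so same-numbered libraries may share animals, though no source ties the number to them. Deviations of same-numbered libraries had correlations of 0.0068 to 0.011, above those of differently numbered libraries (-0.0085 to 8.9e-04). Alternatives were DESeq2 (version 1.42.0), limma-voom (limma version 3.58.1), other scalings, filters and count minimums, the replicate number as a block, and each library left out. The total of 600 weights the deeper high-glucose libraries more. Scaling each library to the mean total first gave 126 members with 17 lower and 7 higher.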

Additional observations from a re-analysis of the deposited data

How the results depend on the processing

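Of the 24 called members, 10 kept the call and direction in all 15 alternative fits (*Zfp597*, *Zfp148*, *Zfp92*, *Zfp652*, *Zfp869*, *Zfp1*, *Zfp263*, *Zfp592*, *Zfp322a*, *Zfp516*), and the other 14 lost the call in at least 1 without a change of sign. Over the leave-one-out fits, the count of higher members ran from 3 (without high-glucose replicate 1 or 2 or low-glucose replicate 1) to 6, and that of lower members from 11 (without high-glucose replicate 3) to 16, against 7 and 17. By the fold rule the higher members ran from 3 to 7 and the lower from 13 to 21. Scaling by library totals gave 4 higher members, and upper-quartile factors 4, and by the fold rule 3 with either. With at least 1200 footprints in the rule 58 genes were left, of which 10 were lower. Those higher were *Zfp800*, *Zfp148*, *Zfp260*, *Zfp110* and *Zfp622*. The smaller counts go with fewer genes in the rule. The median log2FC stayed between -0.17 and -0.10. With the replicate number as a block 5 members were higher and 16 lower, and of the 24 calls those on *Zfp551*, *Zfp260* and *Zfp110* were lost. The cause of these changes was not tested. The median standard error was largest, at 0.28, among the 41 members with the fewest footprints. Calls were lost at high depth too (*Zfp622*, 9831 footprints, in 8 of the 15 fits), and *Zfp597* with 813 footprints kept its call.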

Other observations

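Zfp-named genes that the table does not place in the zf-C2H2 family behaved as follows. At 600 footprints or more there were 24 such protein-coding genes. In high glucose 4 were called higher (16.7%, all genes 12.1%) and 1 lower (4.17%, all genes 10.2%). *Zfp318* went from 18.5 ± 5.45 to 33.6 ± 1.57 CPM (SD, n = 3, log2FC 0.86, adjusted p = 0.0016 in edgeR), *Zfp106*, an RNA-binding protein that motor neurons and muscle need in the mouse, from 41.3 ± 2.04 to 64.9 ± 2.96 CPM (0.65, adjusted p = 1.6e-04), *Zfp638* from 69.9 ± 4.90 to 96.0 ± 5.23 CPM (0.46, adjusted p = 0.0012) and *Zfp280b* from 9.25 ± 3.13 to 15.4 ± 3.03 CPM (0.74, adjusted p = 0.0412). *Zfp346*, which binds double-stranded RNA, went from 20.1 ± 3.51 to 8.29 ± 1.14 CPM (log2FC -1.28, adjusted p = 1.5e-04). Their median log2FC was 0.09.

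Of 127 tested zf-C2H2 genes with other names 7 were called higher (5.51%, all genes 12.1%) and 14 lower (11.0%, all genes 10.2%). Among those with at least 600 footprints *Hivep2* (log2FC 1.43), *Hivep1* (1.11) and *Egr1* (0.96), an immediate early gene, were higher. Of 12 tested Klf genes at any depth 6 were lower (50%), *Klf11* (-1.61), *Klf7* (-1.48), *Klf10* (-0.71), *Klf9* (-0.59), *Klf6* (-0.55) and *Klf3* (-0.26). The other 6 were not called, with log2FC from -0.67 (*Klf15*) to 0.34 (*Klf5*). These were chosen after their values were seen.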
